A study of Mus musculus with 4 samples.

Results

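The receptors that carry TGF-beta, activin and BMP signals into cells were followed across RNA sequencing libraries of mouse gastric organoids, which are stomach epithelial cells grown in culture as small hollow structures. The set was chosen by gene symbol and held 10 genes: Tgfbr1, Tgfbr2, Tgfbr3, Acvr1, Acvr1b, Acvr2a, Acvr2b, Bmpr1a, Bmpr1b and Bmpr2. All 10 were found among the 45777 genes of the deposited files. The tested genotype, labelled Smad4 Knockout, was a knockout of Cdh1, Trp53 and Smad4 in organoid lines CPS1 (Smad4 Knockout 1) and CPS4 (Smad4 Knockout 2). The genotype labelled Control was a knockout of Cdh1 and Trp53 in lines CPE (Control 1) and CPG (Control 2), so all 4 lines carry knockouts of Cdh1 and Trp53 by label. There were 2 libraries per genotype, 1 per line. Whether the 4 lines trace to separate animals is not stated in the labels, so p-values measure only the spread between these libraries. The lines were maintained with 5% serum and supernatant of L-WRN cells, which secrete Wnt, R-spondin and noggin, a BMP antagonist. They then spent 2 days in medium without serum or that supernatant before harvest.

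Ligands of the TGF-beta superfamily bind pairs of receptor serine/threonine kinases. A type II receptor (Tgfbr2, Acvr2a, Acvr2b or Bmpr2) phosphorylates a type I receptor (Tgfbr1, Acvr1b, Acvr1, Bmpr1a or Bmpr1b), which phosphorylates SMAD proteins that enter the nucleus together with SMAD4. Tgfbr3 encodes betaglycan, a co-receptor without kinase activity that presents TGF-beta to the type II receptor. In the gastrointestinal epithelium these pathways are known for restraining growth, and inherited loss of SMAD4 or BMPR1A in humans causes juvenile polyposis.

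Total counts were 85649781 and 96402585 in Smad4 Knockout 1 and 2, and 99845702 and 92334224 in Control 1 and 2. Between 92.95% and 93.98% of the counts fell on protein-coding genes, and between 0.941% and 1.48% on mitochondrial ones. Smad4 Knockout 2 had the highest mitochondrial share and the highest rRNA share (0.562%, against 0.243% in Smad4 Knockout 1 and 0.242% and 0.389% in the controls). The epithelial label fitted its markers: 17 of 20 epithelial marker genes were at 1 TPM or more in every library, with Epcam at 804 and 678 TPM in the Smad4 knockouts and at 827 and 781 TPM in the controls (TPM is a level per length of transcript, scaled to the same total in every library). The summed level of 10 fibroblast markers was 0.63 and 0.291 TPM in the Smad4 knockouts against 0.655 and 1.04 TPM in the controls, and Lum and Pdgfrb were at 0 in all 4 libraries. The 10 endothelial markers summed to between 2.98 and 3.65 TPM in a library, the 10 immune markers to between 4.91 and 5.84 TPM, and the 8 smooth muscle and pericyte markers to between 1.53 and 2.07 TPM. Smad4 itself was at 54.4 and 52.9 CPM (counts scaled to library size) in the Smad4 knockouts and at 94.5 and 103 CPM in the controls. Its log2 fold change was -0.88 (SE 0.10), with an edgeR adjusted p of 0.677 over 18115 tested genes, and the direction was that of the label. Transcripts of Cdh1 and Trp53 were present in all 4 lines. Cdh1 was at 11.8 and 15.8 TPM in the Smad4 knockouts and at 10.8 and 9.76 TPM in the controls (edgeR adjusted p = 0.832), and Trp53 at 4.35 and 3.45 TPM in the Smad4 knockouts and at 3.56 and 5.46 TPM in the controls (edgeR adjusted p = 0.963). Transcript levels do not show whether a protein is made, so they do not check these knockouts.

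The receptor genes covered a wide range of levels, and the RefSeq windows before their annotated starts differed as widely in sequence. RefSeq start windows in GRCm38 (the build also called mm10) were found for 9 of the 10 genes, Tgfbr3 being the other. The 250 bases before the start are shown for the gene at the highest level (Tgfbr2), for the next one (Bmpr1a) and for the gene at the lowest level (Bmpr1b), because these are the ends of the order described next. They lie at chr9:116175364-116175613, chr14:34502547-34502796 and chr3:141982265-141982514, all on the minus strand, and for a gene with several listed starts, such as Bmpr1b with 3, the first listed is used. Capitals mark CG dinucleotides, and each sequence is written 5′ to 3′.
Tgfbr2: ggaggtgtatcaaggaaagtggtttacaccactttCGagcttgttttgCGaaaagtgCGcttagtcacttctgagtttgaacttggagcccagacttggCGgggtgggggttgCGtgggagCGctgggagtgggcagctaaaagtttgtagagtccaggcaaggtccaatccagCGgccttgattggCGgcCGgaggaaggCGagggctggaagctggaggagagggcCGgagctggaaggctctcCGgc
Bmpr1a: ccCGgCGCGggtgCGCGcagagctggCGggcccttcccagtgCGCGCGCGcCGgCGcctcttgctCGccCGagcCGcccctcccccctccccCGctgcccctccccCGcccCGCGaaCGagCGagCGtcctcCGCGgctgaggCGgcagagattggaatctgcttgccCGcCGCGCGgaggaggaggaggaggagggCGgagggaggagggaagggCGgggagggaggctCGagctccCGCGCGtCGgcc
Bmpr1b: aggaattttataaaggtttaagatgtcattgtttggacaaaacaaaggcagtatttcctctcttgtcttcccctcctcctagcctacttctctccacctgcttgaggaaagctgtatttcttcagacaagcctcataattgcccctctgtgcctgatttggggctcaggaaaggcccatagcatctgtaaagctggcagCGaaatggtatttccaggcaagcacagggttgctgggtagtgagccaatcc

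The Tgfbr2 window held 12 CG dinucleotides, that of Bmpr1a 36 and that of Bmpr1b 1, against a median of 6 over 27025 annotated genes. Every listed Bmpr1b window lies inside the gene's span, chr3:141837135-142169585, and the later listed ones held 5 each. The bases before the outermost Bmpr1b start were not examined. The Bmpr1a window also lies inside its gene's span, chr14:34411061-34503336. So does the Acvr2b window, chr9:119401928-119402177, in a span of chr9:119401583-119442148. For 7 of the 9 receptor genes the window held 20 or more, against 17.7% of all annotated genes, whether or not these were expressed here. The 2 below that were the gene at the highest level and the gene at the lowest. In these windows CG content therefore did not follow the order of the levels. The motif CAGAC, which SMAD3 and SMAD4 can bind, was searched on both strands. It was found in 4 of the 9 windows (Tgfbr2, Acvr2a, Acvr2b and Bmpr1b), against 42.1% of all genes, and the palindrome GTCTAGAC in 0 of 9, against 0.174%. Which start these organoids use was not measured.

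Tgfbr2, the ligand-binding type II receptor of TGF-beta, was at the highest level of the set. The gene lies at chr9:116087695-116175363 on the minus strand. It was at 104 and 83.3 TPM in the Smad4 knockouts and at 86.3 and 100 TPM in the controls, and 92.6% of tested genes had a lower mean. The 2 genotypes overlapped, with Smad4 Knockout 1 highest and Smad4 Knockout 2 lowest. The group means were 93.8 ± 14.9 TPM in the Smad4 knockouts and 93.3 ± 9.82 TPM in the controls (SD, n = 2 each). On counts the log2 fold change was -0.03 (SE 0.12), with a 95% interval from 0.803-fold to 1.2-fold and an edgeR adjusted p of 0.995. Tgfbr1, the type I receptor that works with it and phosphorylates SMAD2 and SMAD3, was at 29.9 and 23.5 TPM in the Smad4 knockouts and at 27.2 and 28.4 TPM in the controls. Tgfbr1 lies at chr4:47353222-47414926 on the plus strand. Its log2 fold change was -0.10 (SE 0.12, edgeR adjusted p = 0.971), and Smad4 Knockout 2 was again the lowest library. The Tgfbr2 to Tgfbr1 ratio of TPM was 3.49 and 3.54 in the Smad4 knockouts and 3.17 and 3.53 in the controls. Together this pair made up 56.5% and 55.1% of the summed TPM of the 10 genes in the Smad4 knockouts and 57.7% and 56.4% in the controls.

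Tgfbr3, the betaglycan co-receptor, was the member with the largest fitted change and was below every kinase of the set but Bmpr1b in level. Tgfbr3 lies at chr5:107106567-107289629 on the minus strand. It had 97 and 189 counts in the Smad4 knockouts and 63 and 68 counts in the controls. The exact 95% Poisson intervals, which cover counting error only, were 0.910 to 1.37 CPM and 1.68 to 2.25 CPM in the Smad4 knockouts, against 0.494 to 0.823 CPM and 0.570 to 0.930 CPM in the controls. The genotypes did not overlap in CPM, as in 36.9% of all tested genes, and the Smad4 Knockout 1 interval overlapped that of Control 2. The log2 fold change was 1.16 (SE 0.42), or 2.23-fold with a 95% interval from 1.08-fold to 4.59-fold. It did not pass edgeR's test over all genes (unadjusted p = 0.0347, adjusted p = 0.741). Smad4 Knockout 2 decided much of the size: without it the log2 fold change was 0.72, and without Smad4 Knockout 1 it was 1.5. Smad4 Knockout 2 was also the library with the highest mitochondrial and rRNA shares, whose part in the result was not tested. At most 0.507 TPM was reached in any library. Betaglycan is also made by fibroblasts. The fibroblast marker sums given above, 0.291 to 1.04 TPM, are too low to rank the libraries by fibroblast content. A fibroblast source of Tgfbr3 was not tested. In bulk RNA, a difference in the number of cells that make a transcript cannot be told apart from a difference in the amount per cell.

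**Figure D1:**
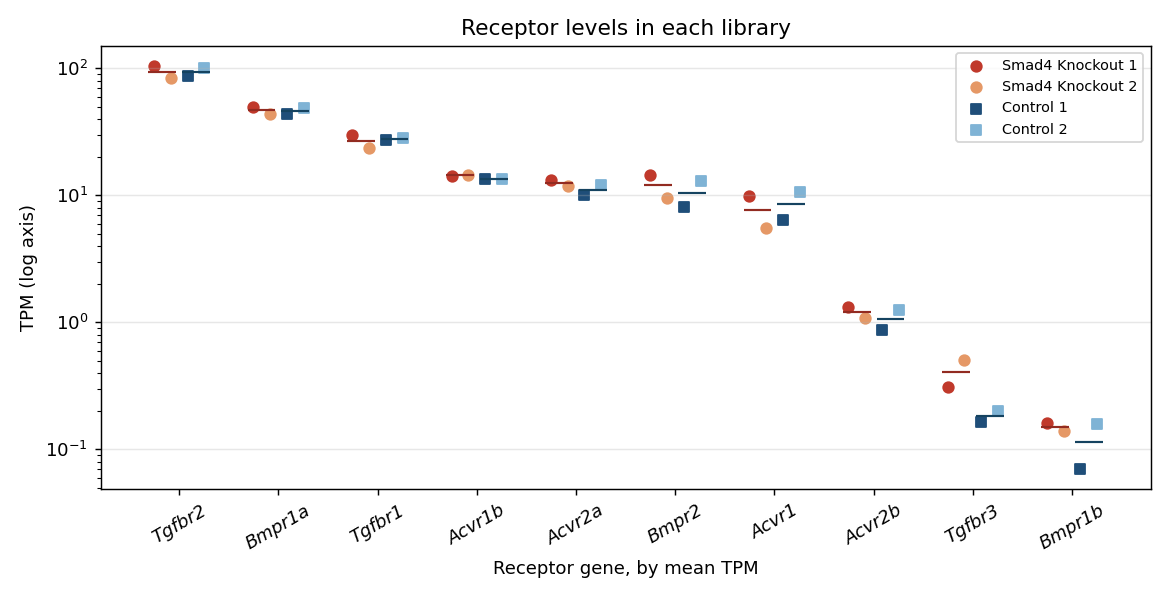
TPM (log axis) of the 10 receptor genes in each library, ordered by mean level, with circles for the Smad4 knockouts, squares for the controls and short lines for the group means. Tgfbr2 sits at 83.3 to 104 TPM and Bmpr1b at 0.0706 to 0.162 TPM, and the genotypes overlap in most genes.

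The activin receptors were at middle to low levels. Acvr1b lies at chr15:101174072-101213684, Acvr2a at chr2:48814109-48903264 and Acvr2b at chr9:119401583-119442148, all on the plus strand. Acvr1b, the activin type I receptor that also acts through SMAD2 and SMAD3, was at 14.3 and 14.5 TPM in the Smad4 knockouts and at 13.5 TPM in each control. In CPM, the scale of the test, it was at 36.9 and 40.2 in the Smad4 knockouts and at 38.2 and 35.8 in the controls, so the genotypes overlapped there and its log2 fold change was 0.06 (SE 0.12, edgeR adjusted p = 0.993). Acvr2a, a type II receptor shared by activins and several BMPs, was at 44.0 and 42.4 CPM in the Smad4 knockouts and at 36.9 and 41.2 CPM in the controls. The genotypes did not overlap in CPM, as in 36.9% of all tested genes. In TPM they overlapped, at 13.2 and 11.9 in the Smad4 knockouts and 10.1 and 12.1 in the controls. Its log2 fold change was 0.14 (SE 0.12), with a 95% interval from 0.909-fold to 1.34-fold and an edgeR adjusted p of 0.921. The end of Acvr2a overlaps the end of Orc4 on the other strand, a gene with 8172 to 10186 counts per library, and whether the counting used strand is not recorded in the labels or file headers. The Acvr2a count is uncertain to that extent.

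Acvr2b, the second activin type II receptor, was lower than its relative Acvr2a in every library. It was at 1.32 and 1.08 TPM in the Smad4 knockouts and at 0.876 and 1.25 TPM in the controls, with Control 1 lowest. The ratio of Acvr2a to Acvr2b ranged from 9.63 to 11.5 over the 4 libraries. The log2 fold change of Acvr2b was 0.15 (SE 0.20, edgeR adjusted p = 0.974). Acvr1b, Acvr2a and Acvr2b together took 12.1% and 14.2% of the summed receptor TPM in the Smad4 knockouts and 12.4% and 11.8% in the controls.

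Bmpr1a carried nearly all of the transcript of the pair of genes named for BMP type I receptors. Bmpr1a lies at chr14:34411061-34503336 and Bmpr1b at chr3:141837135-142169585, both on the minus strand. Bmpr1a was at 49.6 and 43.7 TPM in the Smad4 knockouts and at 43.9 and 48.7 TPM in the controls, the second highest level of the set. Its log2 fold change was -0.04 (SE 0.10), with a 95% interval from 0.822-fold to 1.15-fold and an edgeR adjusted p of 0.995. Bmpr1b, its close relative, had 50 and 52 counts in the Smad4 knockouts and 27 and 54 counts in the controls. That is 0.162 and 0.138 TPM in the Smad4 knockouts against 0.0706 and 0.158 TPM in the controls, with Control 1 apart from the other 3 libraries. The Bmpr1a level was at least 307 times the Bmpr1b level in every library. At this depth the Bmpr1b interval ran from 0.443-fold to 3.81-fold (log2 fold change 0.38, SE 0.63, edgeR adjusted p = 0.985). A change of 2-fold in either direction was therefore not excluded.

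Acvr1 and Bmpr2 differed more between lines of 1 genotype than between the genotypes. They lie at chr2:58446438-58566828 on the minus strand and at chr1:59764279-59878081 on the plus strand. Acvr1, a type I receptor that signals through SMAD1 and SMAD5, was at 9.85 and 5.50 TPM in the Smad4 knockouts and at 6.43 and 10.6 TPM in the controls. Bmpr2, the type II receptor with the strongest preference for BMPs, was at 14.5 and 9.60 TPM in the Smad4 knockouts and at 8.07 and 12.9 TPM in the controls. In both genes Smad4 Knockout 1 and Control 2 were high and Smad4 Knockout 2 and Control 1 were low. The gap between the lines, as log2 of CPM, was 0.62 in the Smad4 knockouts and 0.59 in the controls for Acvr1, and 0.50 in the Smad4 knockouts and 0.59 in the controls for Bmpr2. The log2 fold changes between genotypes were -0.18 for Acvr1 (SE 0.28, edgeR adjusted p = 0.983) and 0.17 for Bmpr2 (SE 0.24, edgeR adjusted p = 0.978). Leaving out 1 library gave -0.52 to 0.15 for Acvr1 and -0.10 to 0.49 for Bmpr2, so neither direction held. Acvr1 was -0.52 without Smad4 Knockout 1, -0.44 without Control 1, 0.12 without Smad4 Knockout 2 and 0.15 without Control 2. Bmpr2 was -0.10 without Smad4 Knockout 1, -0.09 without Control 1, 0.41 without Smad4 Knockout 2 and 0.49 without Control 2. The start of Acvr1 overlaps Upp2 on the other strand, which had 30 and 135 counts in the Smad4 knockouts and 125 and 8 counts in the controls, the reverse of the Acvr1 order. Its part in the Acvr1 counts was not tested.

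**Figure D2:**
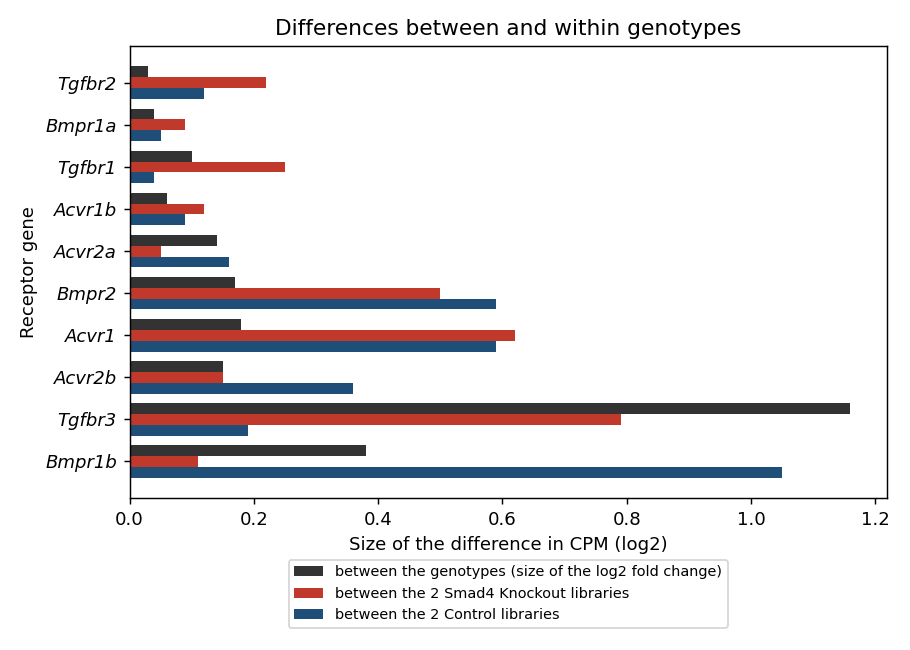
Size of the log2 difference in CPM for each receptor gene, between the genotypes (black), between the Smad4 Knockout libraries (red) and between the Control libraries (blue). The black bar is longer than both others for Tgfbr3 alone, while for Acvr1 and Bmpr2 both within-genotype bars reach 0.50 to 0.62.

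Over the whole set, 0 of 10 receptor genes passed edgeR's quasi-likelihood test at an adjusted p of 0.05, where 0% of the 18115 tested genes passed. Tgfbr3 alone had an unadjusted p under 0.05, against 6.36% of all tested genes. DESeq2 called 0 of the 10 receptor genes against 0.695% of all genes it adjusted. On log2(TPM + 1), limma called 0 of the 8 receptor genes it tested, where it called 0 genes in all. All 10 genes passed the filter on low counts. Tgfbr3 and Acvr2a were the members whose genotypes did not overlap in CPM, 2 of 10 and both higher in the Smad4 knockouts, where 18.2% of all tested genes were higher without overlap, 18.6% were lower without overlap and 36.9% did so in either direction. The log2 fold changes had a median of 0.10, against -0.00 over all tested genes. In 8 of the 10 the gap between the controls exceeded the fitted change, as it did in 60.2% of tested genes. The 95% interval lay within 1.5-fold in either direction for 5 genes (Tgfbr1, Tgfbr2, Acvr1b, Acvr2a and Bmpr1a). It lay within 2-fold for these and for Acvr1, Acvr2b and Bmpr2, 8 genes in all. A change that stays inside a gene's interval was beyond what these libraries resolve, and that limit differed by gene. The Bmpr1b interval (0.443-fold to 3.81-fold) left room for 2-fold in either direction. That of Tgfbr3 (1.08-fold to 4.59-fold), which is not adjusted for the number of genes, left room for 2-fold higher only.

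**Figure D3:**
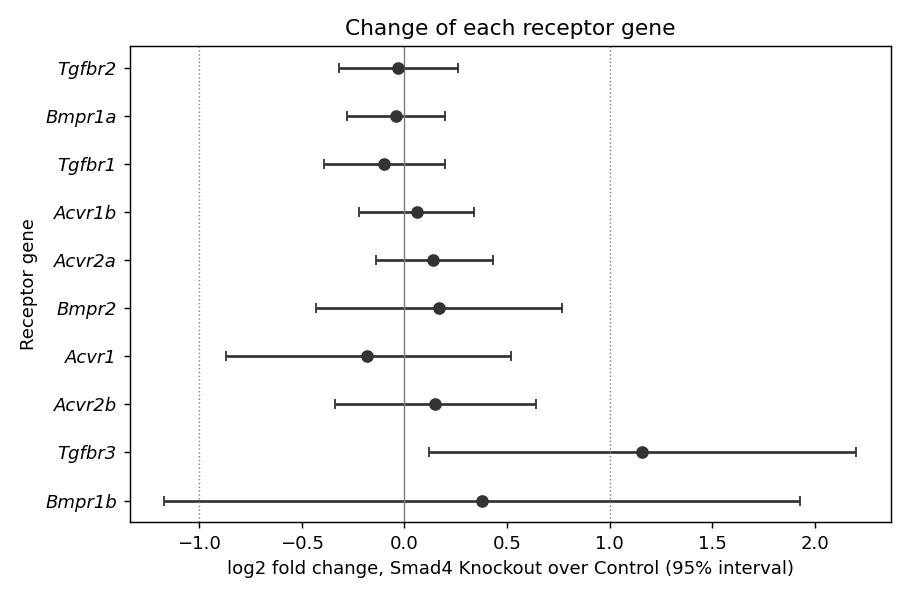
Log2 fold change of each receptor gene, Smad4 Knockout over Control, with its 95% interval from edgeR and dotted lines at 2-fold in either direction. The intervals of 8 genes stay between the dotted lines, that of Bmpr1b (-1.17 to 1.93) spans both and that of Tgfbr3 (0.12 to 2.2) starts above 0.

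The order of the levels was nearly the same in every library. Per length, the order by mean TPM was Tgfbr2, Bmpr1a, Tgfbr1, Acvr1b, Acvr2a, Bmpr2, Acvr1, Acvr2b, Tgfbr3 and Bmpr1b. Neighbours in it were separated in every pair of libraries, except Acvr2a from Bmpr2, whose order held in 2 of the 4 libraries, and Bmpr2 from Acvr1, which overlapped between libraries although Bmpr2 was higher within each of the 4. Acvr1b and Acvr2a (at least 13.5 against at most 13.2 TPM) and Tgfbr3 and Bmpr1b (at least 0.164 against at most 0.162 TPM) were separated only narrowly. Read counts gave a different impression for Bmpr2, which has long transcripts. Its 8048 and 6374 counts in the Smad4 knockouts and 5520 and 7870 in the controls exceeded the 3190 to 3896 of Acvr1b, while its TPM was lower than that of Acvr1b in 3 of the 4 libraries.

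Summed over the 10 genes, receptor transcripts came to 238 and 194 TPM in the Smad4 knockouts and to 197 and 228 TPM in the controls. Smad4 Knockout 1 and Control 2 were again the higher libraries. Of that sum, Tgfbr2 alone took 43.9% and 43.0% in the Smad4 knockouts and 43.9% and 44.0% in the controls. Bmpr1a took 20.9% and 22.6% in the Smad4 knockouts and 22.3% and 21.4% in the controls. Shares of the lower members varied more, with Acvr1 at 4.15% and 2.84% in the Smad4 knockouts and 3.27% and 4.65% in the controls. Bmpr2 took 6.11% and 4.96% in the Smad4 knockouts and 4.10% and 5.66% in the controls. The summed type II kinases exceeded the summed type I kinases in all 4 libraries. The ratio was 1.28 and 1.21 in the Smad4 knockouts and 1.16 and 1.25 in the controls. Most of the type II sum was Tgfbr2. It gave 104 of 133 and 83.3 of 106 TPM in the Smad4 knockouts, and 86.3 of 105 and 100 of 126 TPM in the controls. Of 9 ratios computed, 8 between members and that of the type II to the type I sum, the ratio of Acvr1 to Bmpr2 alone did not overlap between the genotypes, at 0.679 and 0.573 in the Smad4 knockouts and 0.797 and 0.822 in the controls. With 2 libraries on each side, the smallest two-sided p of an exact permutation test is 0.333, so no ratio was tested.

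**Figure D4:**
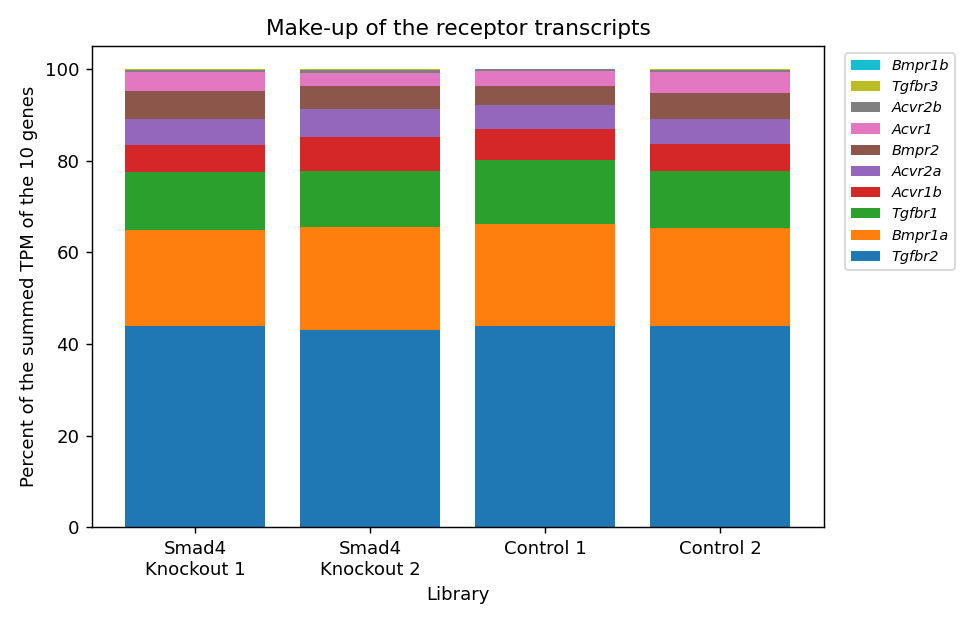
Percent of the summed TPM of the 10 receptor genes taken by each gene in each library, stacked from Tgfbr2 at the bottom; Tgfbr3 and Bmpr1b are too low to see. The 4 highest genes take 83.4% and 85.2% in the Smad4 knockouts and 86.9% and 83.7% in the controls.

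The genes around the receptors were described from 8 lists: further receptors, co-receptors, receptor regulators, SMADs, TGF-beta and activin ligands, BMP ligands, ligand antagonists and stores, and the non-SMAD arm. In edgeR 0 of their 102 tested genes passed over all genes. At an unadjusted p under 0.05, 3 were higher and 9 lower, against 3.33% higher and 3.04% lower of all tested genes. The 9 lower genes include Smad4, the gene knocked out by label. DESeq2 called 4 of the listed genes, Smad4 and Ltbp2 as lower and Fstl1 and Bmp3 as higher, against 0.695% of all genes it adjusted. Among the other receptors, Acvrl1, the endothelial type I receptor also called ALK1, was at 0.396 and 0.684 TPM in the Smad4 knockouts and at 0.679 and 0.627 TPM in the controls. Acvr1c, which can stand in for Acvr1b in activin and nodal signalling, had 28 and 49 counts in the Smad4 knockouts and 0 and 9 counts in the controls (edgeR adjusted p = 0.832).

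Co-receptors had 0 genes called by edgeR of 13 tested, against 0% of all tested genes, with 5 above 0 and 8 below. Bambi, a decoy receptor without a kinase that blocks TGF-beta and BMP signals, was at 1.44 and 1.64 TPM in the Smad4 knockouts and at 0.768 and 1.10 TPM in the controls. Its log2 fold change was 0.63 (SE 0.28, edgeR adjusted p = 0.810). Vasn, a cell surface protein that binds TGF-beta, was at 11.2 and 8.66 TPM in the Smad4 knockouts and at 13.9 and 13.4 TPM in the controls (log2 fold change -0.50, SE 0.15, edgeR adjusted p = 0.677). Nrp2, a neuropilin, had a log2 fold change of -0.38 (SE 0.15, edgeR adjusted p = 0.785), and -0.20 without Smad4 Knockout 2. Tdgf1, Cfc1 and Hjv, co-receptors for nodal and for BMPs, had 0 counts in all 4 libraries, which allows up to 3 counts in each.

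Among regulators of receptor turnover edgeR called 0 of 33 tested genes, against 0% of all tested genes. The median log2 fold change of these regulators was 0.02. Pmepa1, an inhibitor of TGF-beta signalling that binds SMAD2 and SMAD3, was at 31.9 and 19.4 TPM in the Smad4 knockouts and at 40.5 and 41.0 TPM in the controls (log2 fold change -0.70, SE 0.21, edgeR adjusted p = 0.677), and leaving out Smad4 Knockout 2 gave -0.40. Smad7, which brings ubiquitin ligases to the type I receptor, was at 6.13 and 4.30 TPM in the Smad4 knockouts and at 7.61 and 6.76 TPM in the controls (log2 fold change -0.51, SE 0.19, edgeR adjusted p = 0.741), with -0.32 when Smad4 Knockout 2 was left out. Smurf1, one of those ligases, was at 48.0 and 31.0 TPM in the Smad4 knockouts and at 46.2 and 57.9 TPM in the controls. Furin, a protease that matures TGF-beta precursors, was at 20.3 and 17.2 TPM in the Smad4 knockouts and at 20.7 and 29.6 TPM in the controls. Its log2 fold change was -0.44 (SE 0.16, edgeR adjusted p = 0.735), and -0.23 when Control 2 was left out. Fkbp1a, which holds type I receptors inactive, had a log2 fold change of 0.08 (SE 0.17). Smurf1 and Fkbp1a are given for their roles and were chosen after their values were seen.

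The SMADs that receptors act on are Smad2 and Smad3 in the TGF-beta and activin arm and Smad1, Smad5 and Smad9 in the BMP arm, given here as a whole class and chosen after their values were seen. Smad3 was at 141 and 113 CPM in the Smad4 knockouts and at 144 and 164 CPM in the controls. Its genotypes did not overlap, and 18.6% of all tested genes were likewise lower without overlap. Its log2 fold change was -0.28 (SE 0.14, edgeR adjusted p = 0.832). Smad2 (-0.06, SE 0.10), Smad1 (0.04, SE 0.13) and Smad5 (0.10, SE 0.16) had smaller log2 fold changes, and Smad9 had 0 counts in all libraries. In edgeR 0 of the 7 tested genes of the SMAD list were called, against 0% of all tested genes. DESeq2 called Smad4 (adjusted p = 4.92e-08), against 0.695% of all genes it adjusted. Smad4 and Smad7 were the members of that list at an unadjusted p under 0.05 in edgeR.

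The ligands that follow were below Tgfbr2, Bmpr1a and Tgfbr1 in mean TPM. The highest mean among TGF-beta and activin ligands belonged to Tgfb3, at 9.52 and 10.4 TPM in the Smad4 knockouts and at 8.39 TPM in each control (log2 fold change 0.21, SE 0.14, edgeR adjusted p = 0.881). Inhba, the activin A subunit, was at 5.37 and 1.84 TPM in the Smad4 knockouts and at 5.13 and 6.42 TPM in the controls, low in Smad4 Knockout 2 alone. It was named because edgeR called it without Smad4 Knockout 1 (adjusted p = 0.0278). In the BMP list Bmp3, an antagonist-like BMP, was at 1.29 and 2.33 TPM in the Smad4 knockouts and at 0.701 and 0.359 TPM in the controls (log2 fold change 1.73, SE 0.47, edgeR adjusted p = 0.677). Amh, the anti-Müllerian hormone, had 21 and 42 counts in the Smad4 knockouts and 0 in each control. Its mean CPM in the Smad4 knockouts was 10.7 times a floor of 3 counts per control library. That ratio leaves out the error of the knockout counts, and the edgeR adjusted p was 0.677.

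Among ligand antagonists and stores, edgeR called 0 of 17 tested genes, against 0% of all tested genes. DESeq2 called Fstl1 (adjusted p = 0.00769) and Ltbp2 (adjusted p = 0.029), against 0.695% of all genes it adjusted. Fstl1, a secreted follistatin-like glycoprotein, was at 52.6 and 81.3 TPM in the Smad4 knockouts and at 34.2 and 35.3 TPM in the controls (log2 fold change 0.92, SE 0.23, edgeR adjusted p = 0.677), and leaving out Smad4 Knockout 2 gave 0.52. Ltbp2 (-1.82, SE 0.40), Ltbp1 (-0.72, SE 0.26) and Nbl1 (-0.50, SE 0.14) were the members with negative log2 fold changes at an unadjusted p under 0.05. When Smad4 Knockout 2 was left out, Ltbp1 was at -0.42 and Nbl1 at -0.32, and when Control 2 was left out Ltbp1 was at -0.44. Ltbp1, which stores latent TGF-beta in the matrix, was at 33.9 and 20.5 TPM in the Smad4 knockouts and at 34.7 and 54.1 TPM in the controls. The non-SMAD arm, the kinases and adaptors that receptors reach without SMADs, had 0 of 15 genes at an unadjusted p under 0.05 in either direction, against 6.36% of all tested genes. All 15 had a fitted change under 1.5-fold, as did 94.4% of tested genes at a mean of 1 TPM or more. Its highest member, the GTPase gene Rhoa, was at 221 and 216 TPM in the Smad4 knockouts and at 202 and 222 TPM in the controls.

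**Figure D5:**
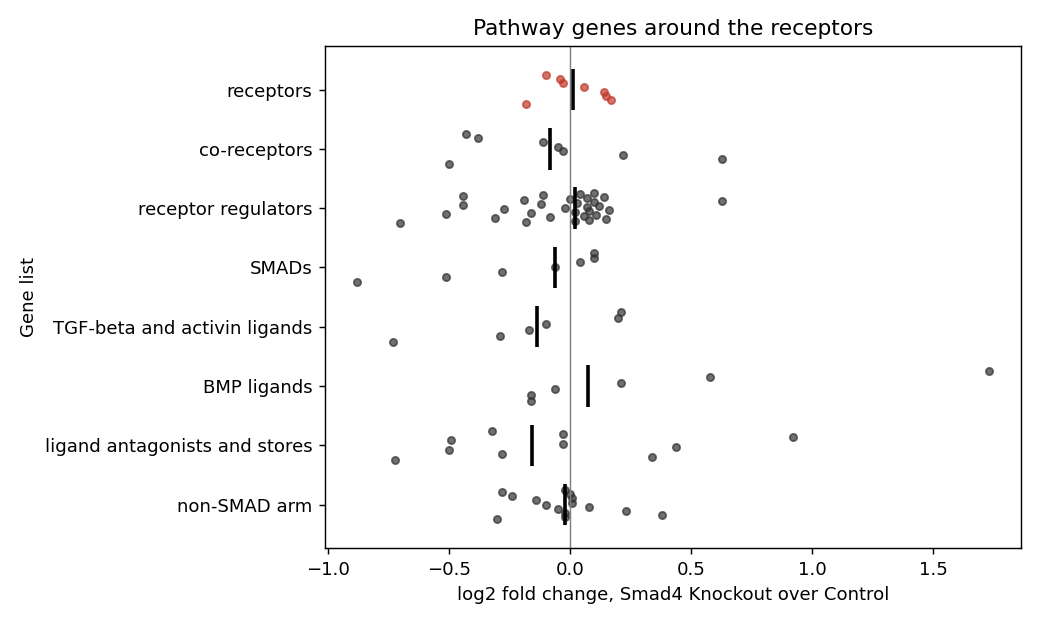
Log2 fold change, Smad4 Knockout over Control, of the listed genes with a mean of at least 1 TPM, one point per gene and a bar at each median, with the receptors in red. The 8 receptors at that level lie between -0.18 and 0.17, and the 6 BMP ligands between -0.16 and 1.73.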

How the data were processed

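RNA of 4 libraries was prepared with a stranded total RNA kit from 0.5 µg of RNA each, per the labels' protocols. Tools listed in the submitters' processing notes are HISAT2 2.1.0, StringTie 2.1.3b, Trimmomatic and bcl2fastq 2.20.0, with the mm10 build; neither the counting step nor its strand setting is named. Per the file headers, each gene has a TPM, an FPKM and a read count made by the authors. The deposited counts hold only whole numbers and, with StringTie among the tools the authors used, were analysed as estimated counts. The deposited TPM gave levels between genes, and the deposited FPKM was used only to compare their order. A further FPKM column that names another sample (1 column) was not used. Control 2's columns carry its title with an added 2.

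Genotype came from the labels, and replicate numbers only name libraries. Counts were tested with edgeR 4.0.16 in R 4.3.3 (quasi-likelihood F-test, TMM, filterByExpr with minimum count 10, genotype as the only term, Benjamini-Hochberg over 18115 genes, adjusted p 0.05). Genes varied between libraries with a common dispersion of 0.068 (coefficient of variation 26.1%). SEs and 95% intervals were computed from the fitted change and F with 5.93 degrees of freedom for nearly all genes. CPM use TMM-scaled library sizes, and gaps between libraries are log2(CPM + 0.01). DESeq2 1.42.0, limma 3.58.1 on log2(TPM + 1) and log2(TPM + 0.1) for genes at 1 TPM or more in at least 2 libraries, RLE factors, no filter, and leaving out each library were alternatives. The fits were tested on simulated data. Coordinates and start windows are RefSeq's for GRCm38, the annotation held 45679 of the gene IDs, and all 26 symbols turned into dates were restored from gene IDs. Of 198 listed gene names, 196 were found.

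The receptor genes, lists and tests were chosen with earlier results of these data known. Named list genes are up to 4 per list with an unadjusted p under 0.05, otherwise the member with the highest mean TPM, and for marker lists up to 3 with the highest mean TPM; other named genes were chosen after their values were seen, for their roles or their level of 0.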

Additional observations from a re-analysis of the deposited data

How the results depend on the processing

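No receptor gene passed at an adjusted p of 0.05 under any setting run: RLE factors, no filter, DESeq2, limma on either TPM scale, or leaving out any library. Tgfbr3 and Bmpr1b were below the filter of the limma fits and have no value there. On either TPM scale limma called 0 genes in all, as did edgeR with RLE factors or no filter. Over all genes edgeR made 0 calls and DESeq2 131; leaving out 1 library gave 0 to 92 calls, with 92 without Smad4 Knockout 1 and 1 without Control 1. Calls among the 8 pathway lists were 4 with DESeq2 and 0 to 3 when a library was left out. The 3 without Smad4 Knockout 1 were Inhba, Fstl1 and Ltbp2. The causes were not tested. Several receptor changes near 0 turned sign. On both TPM scales Tgfbr2 was 0.00 and Bmpr1a 0.01. Over the libraries left out, log2 fold changes ranged from -0.23 to 0.04 for Tgfbr1, from -0.14 to 0.09 for Tgfbr2, from -0.52 to 0.15 for Acvr1, from -0.02 to 0.34 for Acvr2b, from -0.09 to 0.02 for Bmpr1a, from -0.06 to 1.01 for Bmpr1b, from -0.10 to 0.49 for Bmpr2 and from -0.46 to 0.05 for Trp53. Tgfbr3 (0.72 to 1.5), Acvr1b (0.01 to 0.12) and Acvr2a (0.07 to 0.22) stayed above 0. The order of the 10 receptor levels was the same in FPKM. Within a library TPM is FPKM rescaled to a fixed total, so this is not a separate check. No paired analysis was possible because the labels give no replicate numbers shared by the genotypes. With a library left out, the lone library of a genotype is assumed to vary like the other genotype.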
